A study of Homo sapiens with 4 samples.

Results

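Aminoacyl-tRNA synthetases attach each amino acid to its tRNA, the step that lets the ribosome read a codon as an amino acid. RNA of this enzyme family was measured in BE(2)C cells, a human neuroblastoma line in which MYCN is amplified, with and without MYCN knockdown. The 38 genes were taken by symbol from a list of the family: 19 cytosolic synthetases, 16 mitochondrial synthetases and the 3 scaffold proteins AIMP1, AIMP2 and EEF1E1. All 38 were among the 26364 genes listed in every sample, and 37 passed the filter on low values. The mitochondrial valine enzyme VARS2 did not pass it. The files use older symbols, so that AARS is the gene now called AARS1.

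Ctrl cells (2 samples) received a non-targeting siRNA and MYCN KD cells (2 samples) received an siRNA against MYCN. The sample labels give an siRNA concentration of 80 nM, an incubation with siRNA and lipid reagent of 6 h and RNA extraction on the next day for all 4 samples, and the study's methods give another final siRNA concentration. All samples carry the genotype label wild type and share the line's MYCN amplification, and only 1 siRNA against MYCN is named in the study's methods, so that an effect of that siRNA on other genes cannot be told apart from the knockdown. The comparison asks how RNA levels respond when MYCN falls.

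The values are RPKM, the reads of a gene scaled by its length and by the mapped reads of the sample, calculated by the authors from normalized counts. Differences were tested with limma on log2(RPKM + 1) over the 11411 genes that averaged an RPKM of 1 or more, and an adjusted p is Benjamini-Hochberg adjusted over all of them. Log2 fold changes below are MYCN KD minus Ctrl on this scale, with the standard error (SE), and they understate the change of genes with low RPKM. "Fell" and "rose" are used for an adjusted p under 0.05. With 2 samples against 2, an exact two-sided permutation test of a single gene cannot give a p below 0.3333. In RNA from whole cultures, fewer cells of a kind and less RNA per cell cannot be told apart.

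The totals of reads behind the RPKM values lay between 29055819 and 34142988. MYCN RNA had an RPKM of 1068 and 1073 in Ctrl against 720.2 and 718.0 in MYCN KD, which is 67.2% of Ctrl (limma adjusted p = 0.00361). The 7 neuroblastoma markers used here, PHOX2A, HAND2, GATA3, ISL1, TH, DBH and CHGA, all averaged an RPKM of 28.5 or more, and their summed RPKM was 3031 and 2763 in Ctrl versus 3954 and 4333 in MYCN KD, with 5 of the 7 higher. The 6 markers of other cells had a summed RPKM of 0.882 and 0.909 in Ctrl against 2.24 and 2.19 in MYCN KD, most of it COL1A1, while PTPRC, PECAM1 and ALB were listed at 0 in at least 1 sample each. Whether the marker levels had a part in the results below was not tested. Over the tested genes, replicate 1 departed from the mean of its condition in opposite directions in Ctrl and MYCN KD (correlation of the departures -0.985). The replicates therefore did not vary independently, and the p-values measure only the spread between these 4 samples. The labels give no batch or date.

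Cytosolic translation and mitochondrial translation use separate sets of synthetases, nearly all encoded by separate nuclear genes. KARS and GARS are exceptions, since each gene makes both the cytosolic and the mitochondrial enzyme. In the cytosol, a group of synthetases is held in a multi-synthetase complex by AIMP1, AIMP2 and EEF1E1, while the others work outside it. MYC family proteins bind DNA with MAX at the E-box CACGTG and are known activators of genes for ribosomes and protein synthesis. Many cytosolic synthetase genes are also known targets of ATF4, the transcription factor of the amino acid response, which binds the composite element TTGCATCA.

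Both elements were searched on both strands in the RefSeq promoter sequences (GRCh38.p14, 250 bases before to 50 after the start), which held 33 of the 38 genes, with no entry for YARS, LARS, DARS, AARS2 and VARS2. Neither element contains the other. TTGCATCA was found in the promoters of 6 of 16 cytosolic synthetases (37.5%), 0 of 14 mitochondrial synthetases and 0 of 3 scaffolds. It was in 1.08% of all 27305 genes of the table and in 0.72% of the 9006 tested genes with an entry. The 6 sites are printed here because this element was found in cytosolic promoters and in no mitochondrial one. Each run of 30 bases is written in the direction of the gene with the element in capitals, and its position is its exact match in GRCh37.
IARS (chr9:95055974-95056003, minus strand): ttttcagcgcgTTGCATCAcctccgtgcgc
MARS (chr12:57881836-57881865, plus strand): gccggttccggTTGCATCAgcgagggattc
AARS (chr16:70323578-70323607, minus strand): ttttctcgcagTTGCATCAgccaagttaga
CARS (chr11:3078637-3078666, minus strand): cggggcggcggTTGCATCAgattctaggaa
NARS (chr18:55289036-55289065, minus strand): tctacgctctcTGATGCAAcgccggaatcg
TARS (chr5:33441062-33441091, plus strand): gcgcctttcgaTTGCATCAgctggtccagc
In NARS the element is read on the opposite strand of the gene. Counted from the RefSeq start site, the first base of the element lay at -13 in IARS, -4 in MARS, -2 in CARS, 3 in TARS and 15 in NARS. It lay farther away, at -187, in AARS. By GENCODE, however, AARS begins at chr16:70323610 on the minus strand, which puts its element inside the gene. CARS and TARS have 2 promoters listed each, and their distances were counted from a single start.

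CACGTG was found in the promoters of 5 of the 33 genes (15.2%), 1 of 16 cytosolic synthetases, 1 of 3 scaffolds and 3 of 14 mitochondrial synthetases. It was in 8.77% of all genes of the table and in 13.2% of the tested genes, so that its share among the family was close to that of tested genes. The 5 sites are shown because they include those of MARS2 and EARS2, the mitochondrial genes with the largest falls. NARS2 and YARS2, without CACGTG in their promoters, fell more than CARS2 (log2 fold changes -0.53, -0.41 and -0.40).
IARS (chr9:95056148-95056177, minus strand): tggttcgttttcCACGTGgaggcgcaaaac
AIMP2 (chr7:6049109-6049138, plus strand): ccgggcgctggcCACGTGcaggtaggagcg
CARS2 (chr13:111358848-111358877, minus strand): tgctgggatgcaCACGTGcttcgctaacag
EARS2 (chr16:23568669-23568698, minus strand): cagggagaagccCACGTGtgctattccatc
MARS2 (chr2:198570070-198570099, plus strand): atgcgcctctcaCACGTGctgtcagaacgc
The first base of the E-box lay at -3 in CARS2, -11 in MARS2, -15 in EARS2, -75 in AIMP2 and -186 in IARS. CARS2, EARS2 and AIMP2 have 2 promoters listed each, and their distances were counted from a single start. A match says only that these letters are in the window, and whether MYCN or ATF4 binds there was not tested.

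Upon MYCN knockdown, RNA of most of the family was lower. Of the 37 tested genes, 22 fell (59.5%), against 22.8% of all tested genes. None rose, against 25.3% of all tested genes, and none was higher at an unadjusted p under 0.05 with limma or with limma voom on the recovered reads. Both MYCN KD values lay below both Ctrl values in 29 of the 37 genes, against 35.8% of all tested genes. The median log2 fold change was -0.40 over the family and 0.03 over all tested genes, whose middle 50% lay between -0.23 and 0.29. The summed RPKM of the 38 genes was 1915 and 1914 in Ctrl versus 1477 and 1481 in MYCN KD, which is 77.3% of Ctrl.

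**Figure D1:**
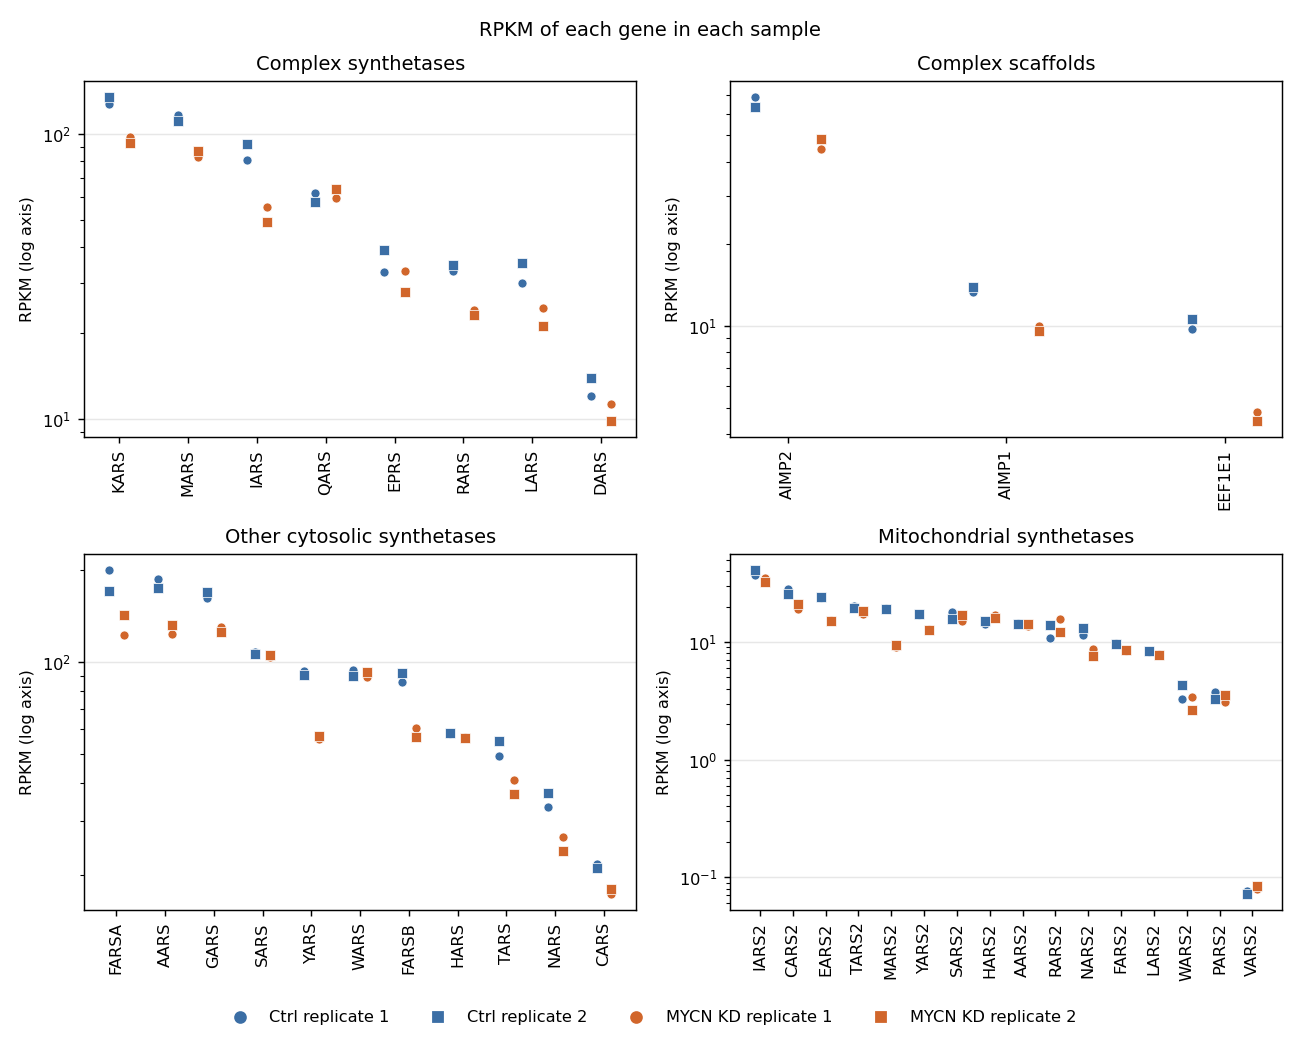
RPKM of the 38 genes in each of the 4 samples, on log axes, in 4 panels by class, with genes ordered by their mean in Ctrl. Circles are replicate 1 and squares replicate 2, in blue for Ctrl and orange for MYCN KD. The orange points lie below the blue ones for most genes, with overlapping points for QARS, EPRS, WARS, WARS2, PARS2, SARS2 and RARS2.

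The 8 synthetases of the multi-synthetase complex had a summed RPKM of 493.0 and 517.4 in Ctrl against 388.9 and 374.2 in MYCN KD. Of these 8 genes, 5 fell (IARS, RARS, LARS, KARS and MARS), which is 62.5% against 22.8% of all tested genes. The median log2 fold change of the 8 was -0.43. IARS, the isoleucine enzyme, spans chr9:94972489-95056136 on the minus strand (GRCh37) and carries both elements shown above. Its RPKM was 80.7 and 92.3 in Ctrl versus 55.5 and 48.8 in MYCN KD, with a log2 fold change of -0.72 (SE 0.104, limma adjusted p = 0.0145). Both MYCN KD values lay well below both Ctrl values, although the replicates of each condition also stood apart. RARS, the arginine enzyme, had an RPKM of 32.96 and 34.6 in Ctrl against 24.2 and 23.1 in MYCN KD (log2 fold change -0.50, limma adjusted p = 0.00706). KARS, the lysine enzyme of both compartments, had an RPKM of 126.6 and 134.2 in Ctrl versus 97.7 and 92.5 in MYCN KD (log2 fold change -0.45, limma adjusted p = 0.00956).

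MARS, the methionine enzyme that also charges the initiator tRNA, had an RPKM of 116.0 and 110.5 in Ctrl against 83.0 and 87.1 in MYCN KD (log2 fold change -0.41, SE 0.0474, limma adjusted p = 0.00956). The 2 conditions were far apart relative to the replicates. LARS, the leucine enzyme, which is also known as a leucine sensor upstream of mTORC1, had an RPKM of 29.9 and 35.1 in Ctrl versus 24.6 and 21.1 in MYCN KD (log2 fold change -0.49, SE 0.121). Its limma adjusted p of 0.0437 was near the threshold, the spread between its replicates was wide, and the call was lost when samples were rescaled to the same total and when no filter on low values was used.

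The other 3 enzymes of the complex did not pass the test. EPRS, which joins the glutamate and the proline enzyme in 1 protein, had an RPKM of 32.8 and 39.1 in Ctrl against 32.98 and 27.9 in MYCN KD, so that the conditions overlapped. DARS, the aspartate enzyme, had an RPKM of 12.1 and 13.9 in Ctrl versus 11.3 and 9.88 in MYCN KD, with both MYCN KD values below both Ctrl values and a limma adjusted p of 0.116. QARS, the glutamine enzyme, had an RPKM of 61.8 and 57.7 in Ctrl against 59.6 and 63.8 in MYCN KD. EPRS and DARS passed the threshold, as lower, without Ctrl replicate 1 or without MYCN KD replicate 1. The log2 fold change of QARS, 0.04 (SE 0.0604), was smaller than its error, and its sign turned when Ctrl replicate 2 or MYCN KD replicate 2 was left out.

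All 3 scaffolds of the complex fell, against 22.8% of all tested genes. EEF1E1, also called AIMP3, lies at chr6:8073593-8102792 on the minus strand and had the largest fall of the cytosolic genes. Its RPKM was 9.76 and 10.6 in Ctrl versus 4.84 and 4.49 in MYCN KD, 45.8% of Ctrl, with a log2 fold change of -0.98 (SE 0.0651, limma adjusted p = 0.00441). AIMP2, the scaffold at the core of the complex, had an RPKM of 69.0 and 63.3 in Ctrl against 44.4 and 48.3 in MYCN KD (log2 fold change -0.50, limma adjusted p = 0.0142). AIMP1, the precursor of a secreted cytokine, had an RPKM of 13.3 and 13.9 in Ctrl versus 9.95 and 9.57 in MYCN KD (log2 fold change -0.44, limma adjusted p = 0.00828). AIMP1 and AIMP2 thus stood at 71.8% and 70.1% of Ctrl, close to the complex enzymes that fell, while EEF1E1 stood lower.

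**Figure D2:**
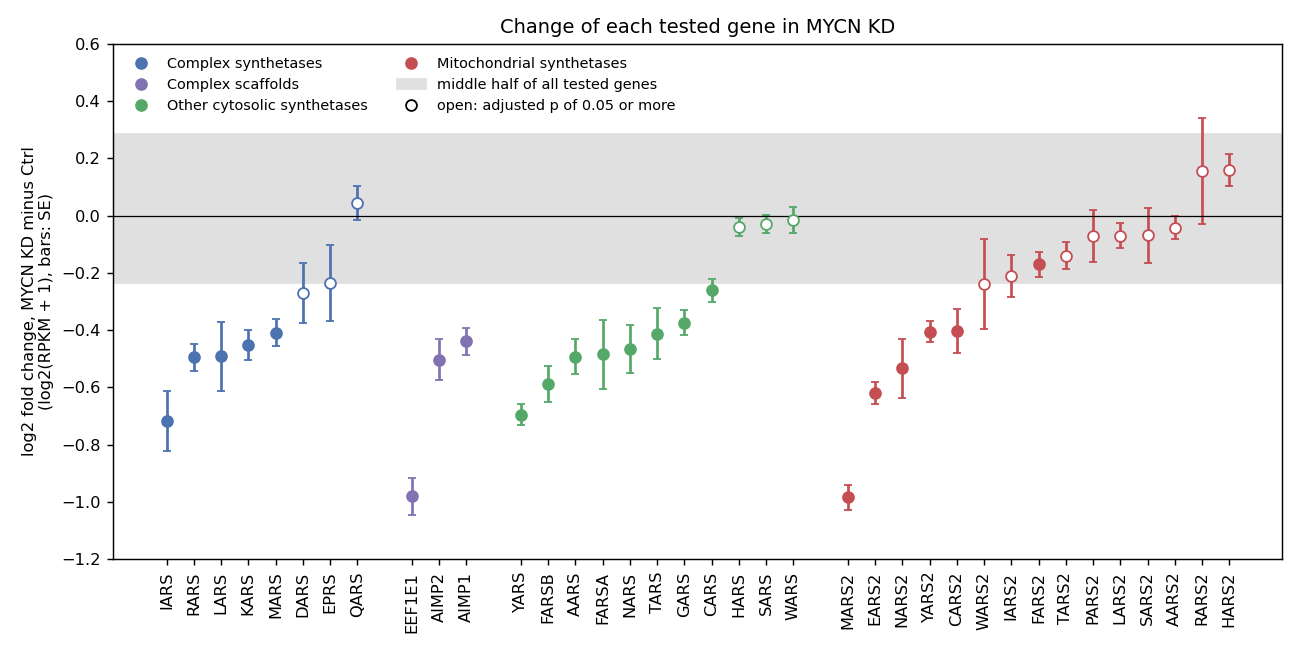
Log2 fold change (MYCN KD minus Ctrl, on log2(RPKM + 1)) of the 37 tested genes by class, with bars for the SE. Filled points have an adjusted p under 0.05, open points do not, and the grey band spans -0.23 to 0.29, the middle 50% of all tested genes. EEF1E1 and MARS2 lie lowest, and no filled point lies above 0.

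Of the 11 cytosolic synthetases outside the complex, 8 fell (72.7%, against 22.8% of all tested genes) and 3 did not pass the test. The median log2 fold change of the 11 was -0.41. Their summed RPKM was 1090 and 1064 in Ctrl against 826.4 and 845.7 in MYCN KD. YARS, the tyrosine enzyme, lies at chr1:33240838-33283632 on the minus strand and had the largest fall of this class. Its RPKM was 93.1 and 90.8 in Ctrl versus 55.7 and 57.1 in MYCN KD, 61.4% of Ctrl, with a log2 fold change of -0.70 (SE 0.0361, limma adjusted p = 0.00365). The replicates of YARS were tight and the conditions wide apart.

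FARSA and FARSB encode the 2 kinds of subunit of the cytosolic phenylalanine enzyme. FARSB had an RPKM of 85.5 and 92.2 in Ctrl against 60.8 and 56.7 in MYCN KD (log2 fold change -0.59, limma adjusted p = 0.0084). FARSA had the highest mean RPKM of the family in Ctrl, with 199.4 and 171.1, versus 122.2 and 141.9 in MYCN KD (log2 fold change -0.49, SE 0.12, limma adjusted p = 0.0442). Both subunits fell, and the replicates of FARSA differed more than those of FARSB. The call of FARSA was lost when no filter on low values was used. In each condition the replicate that was higher for FARSA was the lower one for FARSB.

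This class holds 4 of the 6 genes with TTGCATCA, namely AARS, NARS, TARS and CARS. AARS, the alanine enzyme, had an RPKM of 186.6 and 174.1 in Ctrl versus 123.4 and 132.2 in MYCN KD (log2 fold change -0.49, limma adjusted p = 0.0106). NARS, the asparagine enzyme, had an RPKM of 33.4 and 37.2 in Ctrl against 26.6 and 24.0 in MYCN KD (log2 fold change -0.47, limma adjusted p = 0.023). In both genes the lower Ctrl value was well above the higher MYCN KD value. TARS, the threonine enzyme, had an RPKM of 49.2 and 55.04 in Ctrl versus 41.0 and 36.8 in MYCN KD (log2 fold change -0.41, limma adjusted p = 0.0329). CARS, the cysteine enzyme, had an RPKM of 21.7 and 21.1 in Ctrl against 17.4 and 18.0 in MYCN KD (log2 fold change -0.26, limma adjusted p = 0.0174). The fall of CARS was the smallest of the cytosolic calls, and with the replicate number as a block its adjusted p was 0.193. The call of CARS was also lost with any 1 sample left out, and that of TARS with rescaling or without a filter on low values.

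GARS, the glycine enzyme of both compartments, had an RPKM of 161.6 and 168.7 in Ctrl versus 129.8 and 124.7 in MYCN KD (log2 fold change -0.37, limma adjusted p = 0.0097). It fell, as did KARS, the other gene that serves both compartments.

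HARS, SARS and WARS did not pass the test. WARS, the tryptophan enzyme, which interferon is known to induce, had an RPKM of 93.6 and 89.7 in Ctrl against 88.8 and 92.6 in MYCN KD, with overlapping conditions. SARS, the serine enzyme, had an RPKM of 107.5 and 106.2 in Ctrl versus 104.0 and 105.3 in MYCN KD. HARS, the histidine enzyme, had an RPKM of 57.99 and 58.35 in Ctrl against 56.70 and 56.40 in MYCN KD. The log2 fold changes were -0.01 for WARS (SE 0.0441), -0.03 for SARS (SE 0.0311) and -0.04 for HARS (SE 0.0313), and all 3 turned positive when samples were rescaled to the same total or quantile normalized. The length behind the SARS values was 2.55 times that of its longest GENCODE transcript, so that its RPKM is low for its reads.

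In all, 13 of the 19 cytosolic synthetases fell (68.4%, against 22.8% of all tested genes), with a median log2 fold change of -0.41. The 6 that did not pass were QARS, EPRS, DARS, HARS, SARS and WARS.

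Fewer of the mitochondrial synthetases fell. Of the 15 tested, 6 fell (40%, against 22.8% of all tested genes), none rose and 9 did not pass the test. The median log2 fold change of the 15 was -0.17. The difference between the cytosolic and the mitochondrial class was not tested. The mitochondrial genes also had lower levels, with a median RPKM of 14.4 and 14.7 in the Ctrl samples, against 80.7 and 89.7 for the cytosolic synthetases. Log2(RPKM + 1) changes are understated more at such levels. With a pseudocount of 0.1 the counts of calls were 13 and 6, and the medians were -0.42 and -0.19. Whether the lower levels had a part in the smaller number of mitochondrial calls was not tested.

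MARS2, the mitochondrial methionine enzyme, had the largest fall of the family on the log2(RPKM + 1) scale, with that of EEF1E1 next to it. It lies at chr2:198570093-198573119 on the plus strand, with an E-box at its start site. Its RPKM was 19.6 and 19.0 in Ctrl versus 9.13 and 9.43 in MYCN KD, 48.0% of Ctrl, with a log2 fold change of -0.98 (SE 0.0425, limma adjusted p = 0.00359). EARS2, the glutamate enzyme, which also feeds the formation of glutaminyl-tRNA in mitochondria, had an RPKM of 23.8 and 24.4 in Ctrl against 15.5 and 15.1 in MYCN KD (log2 fold change -0.62, limma adjusted p = 0.00422). In MARS2 and EARS2 the replicates were close together and both conditions were far apart. NARS2, the asparagine enzyme, had an RPKM of 11.5 and 13.2 in Ctrl versus 8.76 and 7.66 in MYCN KD (log2 fold change -0.53, limma adjusted p = 0.0263).

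YARS2, the tyrosine enzyme, had an RPKM of 17.2 and 17.4 in Ctrl against 12.9 and 12.7 in MYCN KD (log2 fold change -0.41, limma adjusted p = 0.0066). CARS2, the cysteine enzyme and the third mitochondrial gene with an E-box, had an RPKM of 28.1 and 25.6 in Ctrl versus 19.1 and 21.0 in MYCN KD (log2 fold change -0.40, limma adjusted p = 0.0258). FARS2, the single-chain phenylalanine enzyme, had an RPKM of 9.83 and 9.55 in Ctrl against 8.38 and 8.62 in MYCN KD. Its fall was small, with a log2 fold change of -0.17 (limma adjusted p = 0.0451), and with the replicate number as a block the adjusted p was 0.471. The call of FARS2 was also lost with any 1 sample left out, with either other scaling and without a filter on low values.

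Among the 9 mitochondrial genes that did not pass, 7 had a negative log2 fold change, from -0.24 to -0.04. IARS2, the gene of this class with the highest RPKM, had 37.4 and 40.8 in Ctrl versus 35.1 and 32.2 in MYCN KD (limma adjusted p = 0.0914). TARS2 had an RPKM of 20.2 and 19.4 in Ctrl against 17.5 and 18.3 in MYCN KD (limma adjusted p = 0.0863). In IARS2, TARS2, LARS2 and AARS2 both MYCN KD values lay below both Ctrl values without a call. The same order was seen in 35.8% of all tested genes, with or without a call. LARS2 had an RPKM of 8.17 and 8.44 in Ctrl versus 7.98 and 7.74 in MYCN KD. AARS2 had an RPKM of 14.6 and 14.3 in Ctrl against 13.8 and 14.2 in MYCN KD. The values of WARS2, PARS2 and SARS2 overlapped between conditions. WARS2 had 3.30 and 4.28 in Ctrl versus 3.44 and 2.67 in MYCN KD, and PARS2 had 3.78 and 3.28 in Ctrl against 3.09 and 3.54 in MYCN KD. WARS2 passed the threshold, as lower, without Ctrl replicate 1 or without MYCN KD replicate 1. SARS2 had 18.0 and 15.8 in Ctrl versus 15.1 and 17.1 in MYCN KD.

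RARS2 and HARS2 had positive values. RARS2, the arginine enzyme, had an RPKM of 10.8 and 14.0 in Ctrl against 15.6 and 12.2 in MYCN KD, with overlapping conditions and a log2 fold change of 0.16 (SE 0.186). Without Ctrl replicate 2 its log2 fold change was 0.33 and passed the threshold (limma adjusted p = 0.0445), and without Ctrl replicate 1 it was -0.02. HARS2, the histidine enzyme, had an RPKM of 14.2 and 15.1 in Ctrl versus 17.0 and 16.0 in MYCN KD, the only gene of the 37 with both MYCN KD values above both Ctrl values (log2 fold change 0.16, limma adjusted p = 0.0942). HARS (chr5:140052620-140071122, minus strand) and HARS2 (chr5:140071015-140078890, plus strand) lie head to head and overlap by 108 bases. Whether reads were counted by strand is not given in the sources used here, so that reads from the overlap cannot be told apart.

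VARS2 was the only member below the filter, with an RPKM of 0.0758 and 0.0726 in Ctrl against 0.0799 and 0.0837 in MYCN KD. These values correspond to 29 and 26 recovered reads in Ctrl and 26 and 29 in MYCN KD. Their 95% Poisson intervals, from 17.0 to 41.7 reads, cover counting error only. Because the reads were recovered from normalized counts, these intervals are only a rough guide to that error. No difference was detectable at this depth. VARS2 lies at chr6:30881982-30894236 on the plus strand. Of 143 protein-coding genes between 29 and 33 Mb of chromosome 6, 141 had a mean RPKM below 1 (98.6%), against 49.3% of 839 on the rest of the chromosome and 44.3% of all 18715 other protein-coding genes. This window was chosen after the value of VARS2 was seen. The cytosolic valine gene VARS, named for the same reason, lies outside the list of 38, and had an RPKM of only 0.286 and 0.321 in Ctrl versus 0.238 and 0.213 in MYCN KD. The lengths behind the values of VARS2 and VARS were 2.75 and 6.47 times those of their longest GENCODE transcripts. Over the other 37 genes the median of this ratio was 1.02, with a range from 0.396 to 2.55, the highest being that of SARS. The levels of VARS2 and VARS in these files are therefore not comparable with those of the other synthetases, and the same caution applies to SARS.

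For 16 pairs of a cytosolic and a mitochondrial gene for the same amino acid, the ratio of their RPKM was calculated in each sample, as a description without a test. The cytosolic gene had the higher RPKM in every sample in 15 of the 16 pairs. CARS and CARS2 were the exception, with ratios of 0.773 and 0.824 in Ctrl against 0.911 and 0.857 in MYCN KD. The mean ratio in Ctrl ran up to 24.7 for WARS to WARS2, whose values overlapped between conditions.

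In 9 pairs both ratios in MYCN KD lay below both in Ctrl. As a log2 difference of the ratio (-0.68), the largest was that of RARS to RARS2, from 3.05 and 2.48 in Ctrl to 1.55 and 1.90 in MYCN KD. IARS to IARS2 had ratios of 2.16 and 2.26 in Ctrl versus 1.58 and 1.52 in MYCN KD, and AARS to AARS2 had 12.8 and 12.2 in Ctrl against 8.93 and 9.32 in MYCN KD. The cytosolic gene of each of these 3 pairs fell and the mitochondrial one did not pass the test. In 4 pairs the ratio was higher in both MYCN KD samples. MARS to MARS2 had ratios of 5.90 and 5.80 in Ctrl versus 9.09 and 9.24 in MYCN KD, and EPRS to EARS2 had 1.38 and 1.61 in Ctrl against 2.13 and 1.84 in MYCN KD. NARS to NARS2 and CARS to CARS2 also had higher ratios, with smaller differences. The ratios of SARS, WARS and EPRS to SARS2, WARS2 and PARS2 overlapped. FARS2 was paired with both FARSA and FARSB, and EPRS with both EARS2 and PARS2, so that the pairs are not independent. The share of ratios without overlap among other pairs of genes was not calculated, so these counts have no background to be read against.

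**Figure D3:**
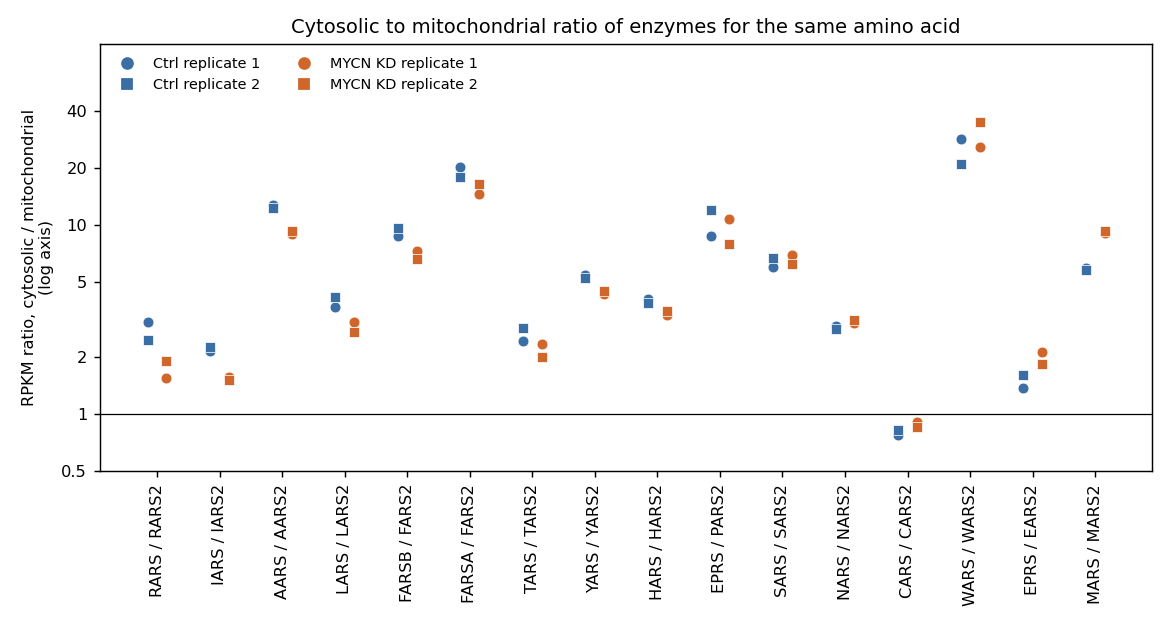
Ratio of the RPKM of the cytosolic to the mitochondrial gene for the same amino acid in each sample, on a log axis with a line at 1, ordered by the change of the ratio. Circles are replicate 1 and squares replicate 2, in blue for Ctrl and orange for MYCN KD. The ratio is lower in both MYCN KD samples for 9 pairs, from RARS to HARS, and higher in both for 4, of which MARS to MARS2 differs most.

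Genes were also compared by the elements in their promoters. All 6 cytosolic synthetases with TTGCATCA fell (IARS, MARS, AARS, CARS, NARS and TARS), with a median log2 fold change of -0.44, while 5 of the 10 without it did, with a median of -0.30. Among all tested genes with a promoter entry, 29.2% of the 65 with TTGCATCA and 22.6% of the 8941 without it fell. All 5 genes with CACGTG fell (IARS, AIMP2, CARS2, EARS2 and MARS2), with a median of -0.62, and 15 of the 28 without it did, with a median of -0.25. Among the mitochondrial genes, 3 of 3 with CACGTG and 3 of 11 without it fell. Over all tested genes, 32.2% of the 1192 with CACGTG fell, against 21.2% of the 7814 without it. These are counts of few genes, given without a test. The calls of CARS and TARS were lost under some alternatives. LARS and YARS, which fell, had no promoter entry and are in none of these counts.

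Other genes of tRNA biology were followed by list. Of the 21 tested genes listed here for tRNA processing and export, 12 fell (57.1%) and 1 rose, against 22.8% and 25.3% of all tested genes. The median log2 fold change of the 21 was -0.36. SSB (log2 fold change -0.73, limma adjusted p = 0.00414), which binds new RNA polymerase III transcripts, had the largest fall there, followed by the RNase P subunit POP7 (-0.70) and the tRNA splicing endonuclease subunit TSEN54 (-0.61). ELAC1 rose by 0.23, a call that was lost with the replicate block (adjusted p = 0.294), while 8 of the 12 falls were kept. Of 37 tested tRNA modification genes, 21 fell (56.8%) and 1 rose, with a median of -0.41. The pseudouridine synthases PUS1 (-1.30, limma adjusted p = 0.00555) and PUS7 (-1.08) and the guanosine methyltransferase METTL1 (-1.13) fell more than any synthetase, and CDKAL1 rose by 0.23. The replicate block kept 17 of the 21 falls and lost the rise of CDKAL1 (adjusted p = 0.207). The medians of these lists were near that of the cytosolic synthetases.

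Of 10 tested genes for other parts of charging (editing, amidation, tRNA release and synthetases outside the 38), 3 fell (30%), which is near the 22.8% of all tested genes. These were the peptidyl-tRNA hydrolase PTRH2 (-0.53, limma adjusted p = 0.0073) and the D-aminoacyl-tRNA deacylases DTD2 (-0.50) and DTD1 (-0.21), of which DTD1 was lost with the replicate number as a block (adjusted p = 0.253). Of the 6 genes for cytosolic elongation factors and their subunits, 5 fell (83.3%). EEF1B2 (-0.79, limma adjusted p = 0.0043), EEF1D (-0.47) and EEF1A1 (-0.34) were ahead, and these 3 were the calls kept with the replicate block. Of 10 mitochondrial translation factors, 4 fell (40%), with a median of -0.16, which was near that of the mitochondrial synthetases. The recycling factor MRRF (-0.60, limma adjusted p = 0.00832) and the elongation factors TUFM (-0.45) and TSFM (-0.43) had the largest falls.

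Of 24 tested genes of the ATF4 response, 15 fell (62.5%) and 3 rose, against 22.8% and 25.3% of all tested genes. The median of the 24 was -0.48. The serine synthesis enzyme PSAT1 had an RPKM of 113.8 and 114.5 in Ctrl versus 43.4 and 43.3 in MYCN KD (log2 fold change -1.38, limma adjusted p = 0.00359). STC2 (-1.26) and the amino acid transporter SLC7A5 (-1.25) followed on this scale, although STC2, with its low RPKM, stood at 30.1% of Ctrl and PSAT1 at 37.96%. In contrast, the stress genes ATF3 (log2 fold change 0.93, limma adjusted p = 0.00359), PPP1R15A (0.62) and TRIB3 (0.24) rose, of which TRIB3 was lost with the replicate block (adjusted p = 0.266). ATF4 itself, named after its value was seen, had an RPKM of 254.9 and 253.9 in Ctrl against 189.0 and 190.0 in MYCN KD (log2 fold change -0.42, limma adjusted p = 0.0046). The list thus held genes that moved in each direction.

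**Figure D4:**
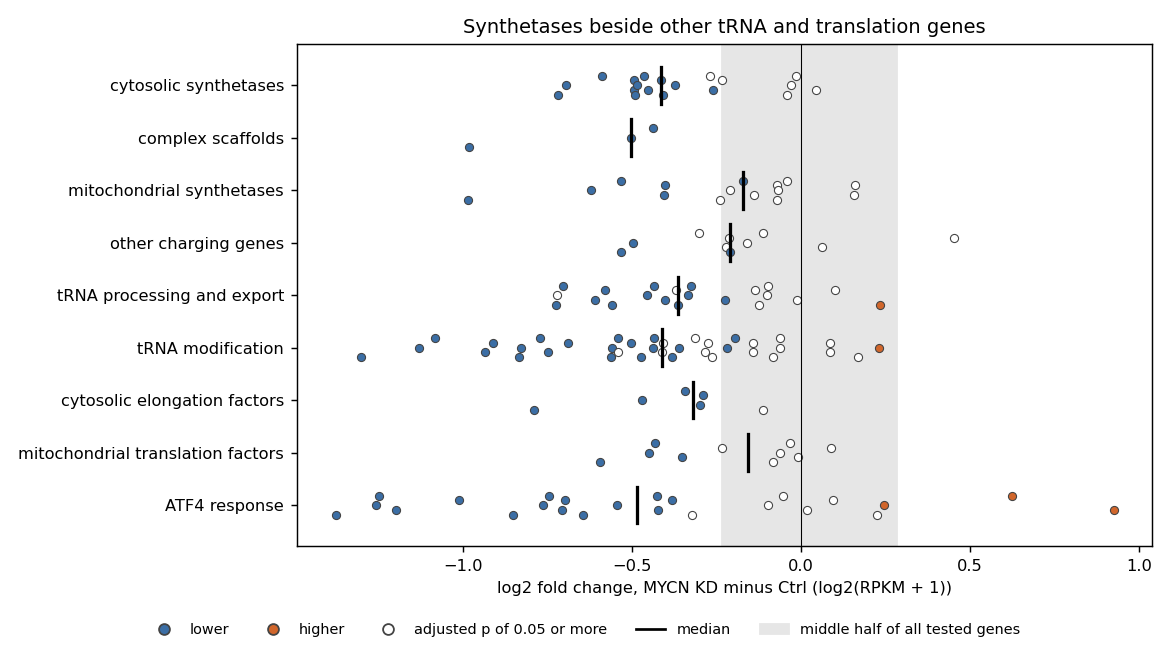
Log2 fold change (MYCN KD minus Ctrl, on log2(RPKM + 1)) of each tested gene in the synthetase classes and in the other lists, with a bar for the median of each list. Blue points fell, orange points rose, white points have an adjusted p of 0.05 or more, and the grey band is the middle 50% of all tested genes. The medians of the cytosolic synthetases and of the tRNA modification genes both lie at -0.41, and those of the mitochondrial synthetases and mitochondrial translation factors lie inside the band.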

How the data were processed

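RNA-seq of 4 BE(2)C samples was used, grouped by their labels. The authors mapped reads to hg19 (HISAT2 2.1.0), counted them on RefSeq genes with featureCounts, used DESeq2 and RUVSeq and deposited RPKM values per sample. The RUVSeq variant, the number of its factors and the strand setting are not given in the sources used here. RUVSeq had thus already adjusted the replicate spread.

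Log2(RPKM + 1) was fitted per gene by limma 3.58.1 under R 4.3.3 (lmFit, eBayes with a trend, no block, 2 residual degrees of freedom). The test took genes averaging an RPKM of 1 or more. P-values were adjusted after Benjamini and Hochberg, and 0.05 was the threshold. The fit was also run on simulated counts in which the samples varied independently. The replicates here did not, so that the error rate of the calls in these data was not measured.

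Whole reads were recovered from the RPKM values through 1503 miRNA genes of known length, for all 19908 genes above 0 within 0.0001 reads. A gene's reads, those of VARS2 included, can be understated where a fraction of its true length also fits. Reads are given for VARS2 only. limma voom on these reads called 22 members lower and 0 higher. Symbols of 28 rows read as dates, and none is a member.

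Positions come from GENCODE 44 lifted to GRCh37. Python 3.11.15, pandas 2.3.3 and matplotlib 3.10.9 were used.

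Members and lists were chosen with earlier results of these data known. A few genes of the other lists are not reported here and were left out of the counts and sums of those lists. Any member could be named, and of each other list up to 3 falls and 3 rises with the largest change past the threshold, with MYCN and the markers.

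The replicate numbers come from the labels. Same-numbered samples did not deviate together (correlation -0.985 over 11411 genes), so they were not taken as pairs. Alternatives were the replicate block, leaving out each sample, voom, another pseudocount, other filters, other scalings and no trend in eBayes. A crossed replicate block was added after seeing the data.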

Additional observations from a re-analysis of the deposited data

How the results depend on the processing

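Of 442 combinations of a member and an alternative, 400 kept direction and side of the threshold, 18 lost and 7 gained a call, and 17 changed sign, none of them of a gene called lower. Of the 22 members called lower, 17 stayed past the threshold under every alternative. The others were FARS2, CARS, LARS, TARS and FARSA. With no filter on low values FARS2, FARSA, LARS and TARS were lost, with rescaling FARS2, LARS and TARS, and with quantile normalization FARS2. With the replicate block 20 members were lower and 0 higher, and 1851 of all tested genes were lower and 2077 higher. CARS and FARS2 were lost, and it changed no other call of a member. IARS, whose replicates stood apart, and YARS, whose replicates were tight, had similar log2 fold changes (-0.72 and -0.70). Their limma adjusted p with the block were also similar (4.007e-06 and 7.554e-06), against 0.0145 and 0.00365 without it. In both genes the spread of their own replicates thus counted for little, and calls kept with the block do not measure it. The crossed replicate block called 34 members lower and 3 higher, and 5262 and 5910 of all tested genes. The replicate numbers were not shown to pair the samples.

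With a mean RPKM of at least 5, 1868 of 7859 tested genes were higher and 2106 lower, so that lower calls outnumbered higher ones, and fewer genes were tested. With each sample left out in turn, 20 to 23 members were lower and 0 to 1 higher, RARS2 without Ctrl replicate 2. Without Ctrl replicate 1 or MYCN KD replicate 1, DARS, EPRS and WARS2 were called lower. CARS and FARS2 were lost without any 1 sample. The log2 fold change then ranged from -0.0041 to 0.0939 for QARS, -0.0451 to 0.0156 for WARS, -0.1512 to 0.0096 for PARS2, -0.0158 to 0.3279 for RARS2 and -0.1554 to 0.0168 for SARS2. Rescaled to the same total, it was 0.0198 for HARS, 0.0309 for SARS, 0.0456 for WARS and 0.0146 for AARS2. Quantile normalized, it was 0.0141 for HARS, 0.0488 for SARS and 0.0693 for WARS. The cause was not tested. A sample left alone in its condition was assumed to vary like the other condition. With 2 samples per condition, small changes such as those of the genes that did not pass may go uncalled, and a missing call does not show equal levels.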
